A study of Caenorhabditis elegans with 12 samples.

Results

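The proteasome subunit genes of *Caenorhabditis elegans* were followed in RNA-Seq of whole mid-L4 larvae. They were chosen by name alone, as the genes of the deposited count table whose symbol begins with *pas-*, *pbs-*, *rpt-* or *rpn-* and a number. The rule took 33 of 21882 genes, of which 14 encode subunits of the core particle (7 *pas* and 7 *pbs*) and 19 encode subunits of the regulatory particle (6 *rpt* and 13 *rpn*). All 33 passed the filter on low counts, together with 15728 genes in all, so no subunit gene was left untested.

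The proteasome is the large protease that degrades proteins tagged with ubiquitin. Its core particle is a barrel of stacked rings, with outer rings of alpha subunits (*pas* genes) that gate the entrance and inner rings of beta subunits (*pbs* genes) that enclose the active sites. The regulatory particle caps the barrel, and its *rpt* ATPases unfold substrates while its *rpn* subunits bind ubiquitin, remove it or hold the cap together. Subunits are built into the complex in fixed proportions, and in worms a processed form of the transcription factor SKN-1, SKN-1A, drives transcription of proteasome subunit genes when proteasome function is impaired.

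Of the 12 samples, 4 were wild type (WT, strain N2), 4 were *raga-1(ok386)* deletion mutants and 4 were the same mutants carrying an extrachromosomal array, *rab-3p::raga-1::SL2::mCherry*, referred to as neuronal rescue. *raga-1* encodes a RagA GTPase, which activates the growth kinase complex TORC1, and *ok386* was present in both the mutant and the rescue. The *rab-3* promoter is pan-neuronal, and the study's text reports that many neuronal promoters leak into the intestine. In its lifespan assays, *raga-1* RNAi removed the intestinal expression of this array, and the long lifespan of the mutant stayed suppressed. All worms were grown on HT115 bacteria with the L4440 vector, and each sample held about 1000 worms from an independent egg lay. Rescue worms were picked under a fluorescence microscope before collection while WT and mutant worms were washed off plates, so handling and strain cannot be told apart in comparisons with rescue. By the dates in the labels, numbered as days of the collection period, the 4 WT replicates came from days 2, 4, 6 and 8, while replicates of the mutant and of rescue came from days 1, 2, 4 and 6.

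Total counts per sample ran from 14287510 to 35619305, and a single subunit gene held between 588 counts (*rpn-6.2*, WT replicate 1) and 10739 counts (*rpn-2*, mutant replicate 2). *raga-1* itself lay at 61.8 to 70.2 CPM (counts after TMM scaling, relative to library size) in WT, 1.42 to 1.76 in the mutant and 805 to 891 in rescue. WT libraries lay 1.80 times as far apart over all genes as libraries of the other groups, with replicates 1 and 3 apart from 2 and 4. These samples are whole animals, in which fewer cells of a type and less RNA per cell cannot be told apart. Of 7 marker lists of tissues, those of sperm, germ line and neurons had 2 or more genes called in each comparison with WT. Those of intestine, body wall muscle, hypodermis and adult yolk had at most 1. Few calls do not show steady levels. In WT the hypodermis list summed to 530 to 2939 CPM and the yolk list to 8694 to 28461 CPM. Median log2 fold changes in the mutant and in rescue were -0.77 and 0.25 for hypodermis and 0.024 and 0.021 for yolk. The study's text reports a developmental delay of *raga-1* mutants that a single copy neuronal transgene did not rescue. The part of developmental stage in these values was not tested. Over all genes 9.01% were called lower and 6.36% higher in the mutant, and 13.5% and 10.2% in rescue. Of 35 major sperm protein genes, 16 were lower in the mutant and 32 in rescue, with summed levels of 5090 to 7582 CPM in WT, 4040 to 5480 in the mutant and 2843 to 3278 in rescue. Of 7 germ line markers, 2 and 4 were lower, with summed levels of 2069 to 2217, 1762 to 1843 and 1601 to 1768 CPM. Of 5 neuronal markers, 2 and 4 were higher, with summed levels of 291 to 308, 330 to 351 and 375 to 402 CPM. The summed level of 4 body wall muscle markers was 4924 to 5484, 5675 to 6104 and 5544 to 6268 CPM, with 1 gene called higher in each comparison. No marker gene of any list was at 0 in a group, and the part of these shifts in the results on the proteasome was not tested.

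Subunit genes of both particles were lower in the mutant than in WT. Summed over the 14 core genes, WT replicates 1 to 4 had 2658, 2628, 2725 and 2636 CPM. Mutant replicates had 2065, 2091, 2114 and 2057 CPM, and rescue replicates 2116, 2072, 2001 and 2094 CPM. Each of the 8 samples with the deletion was below each WT sample. The group means were 2662 ± 43.7 CPM for WT, 2082 ± 26.0 for the mutant and 2070 ± 49.8 for rescue (SD, n = 4 each), so mutant and rescue stood at 78.2% and 77.8% of WT.

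The 19 regulatory genes gave the same order. They summed to 4223, 4312, 4310 and 4231 CPM in WT replicates 1 to 4. Mutant replicates had 3369, 3298, 3388 and 3299 CPM, and rescue replicates 3268, 3267, 3144 and 3289. Again no mutant or rescue sample reached a WT sample. The means were 4269 ± 48.3, 3338 ± 47.1 and 3242 ± 66.4 CPM (SD, n = 4 each), which put the mutant at 78.2% and rescue at 75.9% of WT. WT had a ratio of core to regulatory CPM of 0.624 ± 0.010, the mutant had 0.624 ± 0.009, and rescue had 0.639 ± 0.006. Together the 33 genes took 0.673% of all counts in WT, 0.538% in the mutant and 0.551% in rescue.

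**Figure D1:**
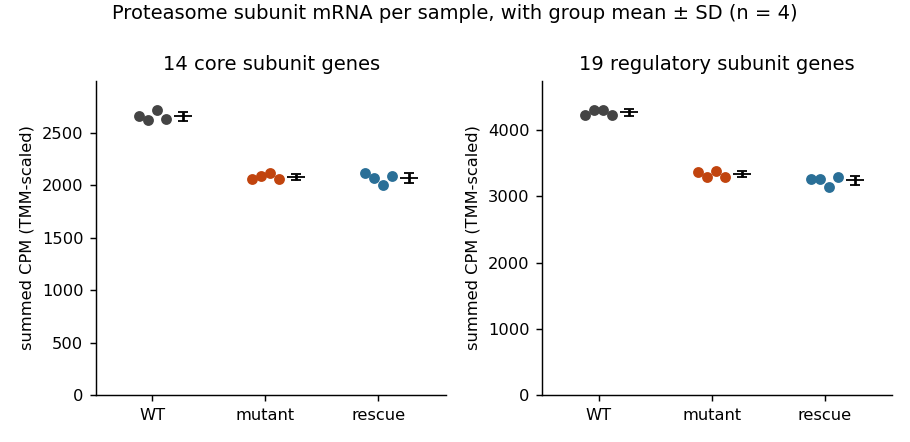
Summed TMM-scaled CPM (vertical axis, from 0) of the 14 core and the 19 regulatory subunit genes in each sample, with WT, mutant and rescue side by side, replicates 1 to 4 from left to right, and a bar for the mean ± SD. In both panels the 4 WT samples lie above all 8 others, and the mutant and rescue points lie close to each other.

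Gene by gene, 12 of 14 core and 18 of 19 regulatory genes were called lower in the mutant than in WT, and 0 were called higher. A gene was called at an adjusted p under 0.01 in edgeR's quasi-likelihood test, adjusted by Benjamini-Hochberg over the 15728 genes. In this comparison 9.01% of all genes were called lower and 6.36% higher. All 33 estimates were below 0, from -0.48 (*pas-2*) to -0.13 (*pbs-1*) on the log2 scale. The median was -0.35 for core and -0.37 for regulatory genes, against 0.0031 over all genes tested. Among the genes called lower, the median log2 fold change was -0.37 for the 30 subunit genes and -0.46 for all 1417 genes. With no overlap asked of the samples instead, 30 of the 33 genes had every mutant sample below every WT sample, against 15.9% of all genes.

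Rescue differed from WT in the same way. Here 12 of 14 core and 18 of 19 regulatory genes were called lower and 0 higher, where 13.5% of all genes were called lower and 10.2% higher. The medians were -0.33 for core and -0.40 for regulatory genes, against 0.040 over all genes, and the lowest estimate was -0.58 (*pas-4*). For 31 of 33 genes every rescue sample was below every WT sample, against 18.3% of all genes. Both comparisons used the same 4 WT samples, so they are not independent of each other. Tested for any difference between the 3 groups, 12 core and 18 regulatory genes were called, against 21.1% of all genes. Scaled by library size alone, 1146 genes were lower and 2142 higher in rescue than in WT in place of 2119 and 1602, while the subunit genes gave 25 lower and 0 higher. When the day of collection entered the model as a block, the calls among the 33 fell to 23 in the mutant and 25 in rescue, while calls of lower genes over the whole table fell to 568 and 1094.

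**Figure D2:**
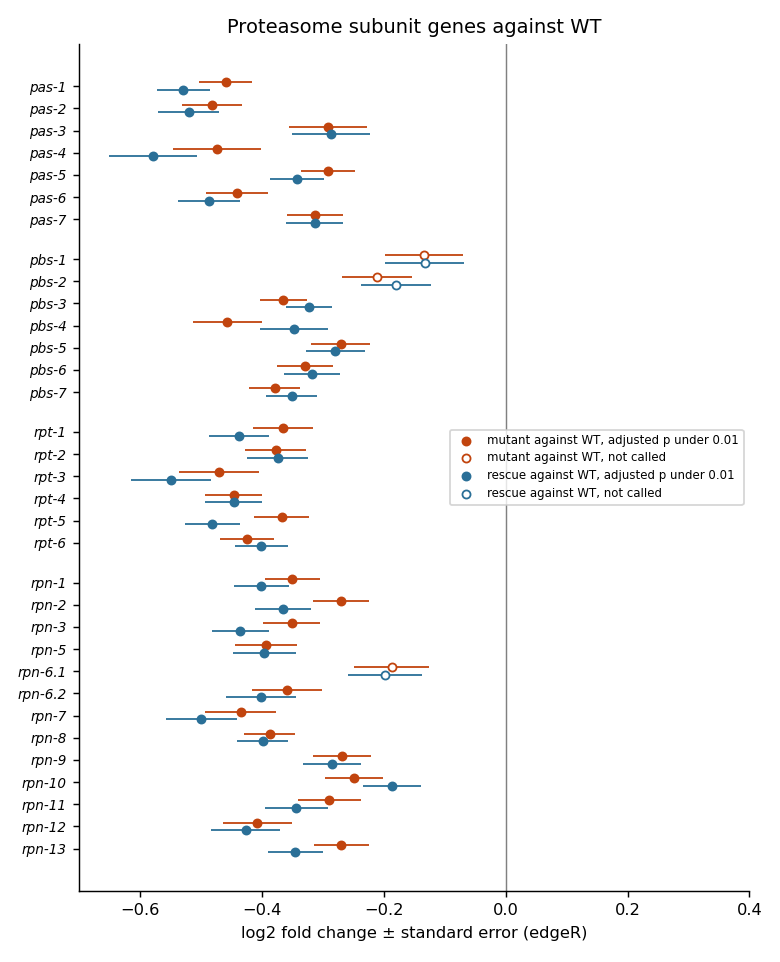
Log2 fold change (horizontal axis) ± standard error of each of the 33 subunit genes, for the mutant and for rescue against the same WT samples, with filled points for calls at an adjusted p under 0.01. All 66 points lie below 0, and the open points are *pbs-1*, *pbs-2* and *rpn-6.1* in both comparisons.

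In the annotation *pas-7*, *pbs-3*, *pbs-4*, *rpt-2*, *rpt-4*, *rpt-6*, *rpn-7*, *rpn-10* and *rpn-11* overlap a gene on the opposite strand, and whether strand was used in counting is not given in the sources used here, so their counts may hold reads of that gene. The other 24 subunit genes have no such overlap, and 21 of them were called lower in each comparison with WT.

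The collection days that all groups share, 2, 4 and 6, allowed a comparison within a day. On each of these 3 days all 33 genes were below WT in the mutant sample. The share of all genes below WT within a day was not counted. In the fit of all 12 samples, 7813 of 15728 genes had estimates below 0 in the mutant and 7229 in rescue, against all 33 subunit genes. The median log2 difference on a day lay between -0.35 and -0.36 for core genes and between -0.35 and -0.41 for regulatory genes. In rescue 32 of 33 were below WT on all 3 days, the exception being *pbs-2* on 1 day, and the medians ran from -0.32 to -0.37 and from -0.36 to -0.43.

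Between rescue and mutant, 0 of 33 subunit genes were called by edgeR, where 0.0763% of all genes were called lower and 0.305% higher in rescue. DESeq2 also called 0 of 33, where it called 132 genes lower and 188 higher over the whole table, together 2.03%. A fit of these 2 groups alone called 117 genes lower and 439 higher, and again 0 subunit genes. At an unadjusted p under 0.05 only *rpt-5* passed, 1 of 33, against 17.1% of all genes. The medians were 0.00046 for core and -0.04 for regulatory genes. The 95% intervals of the 33 differences reached from -0.26 (*pas-4*) to 0.23 (*pbs-4*), and 32 of them held 0. For each gene, differences within its own interval were not excluded at this depth and number of samples. Estimates were above 0 for 6 of 7 *pbs* genes. They were below 0 for 6 of 7 *pas*, 4 of 6 *rpt* and 12 of 13 *rpn* genes, against 7945 of 15728 genes over the whole table. For *rpn-2* and *rpn-13* no rescue sample overlapped a mutant sample, 2 of 33 against 17.7% of all genes in either direction. With library size alone as the scaling, 9 of 33 estimates were below 0 in place of 23. The medians then became 0.064 for core and 0.022 for regulatory genes, so the sign of these small differences depended on the scaling.

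**Figure D3:**
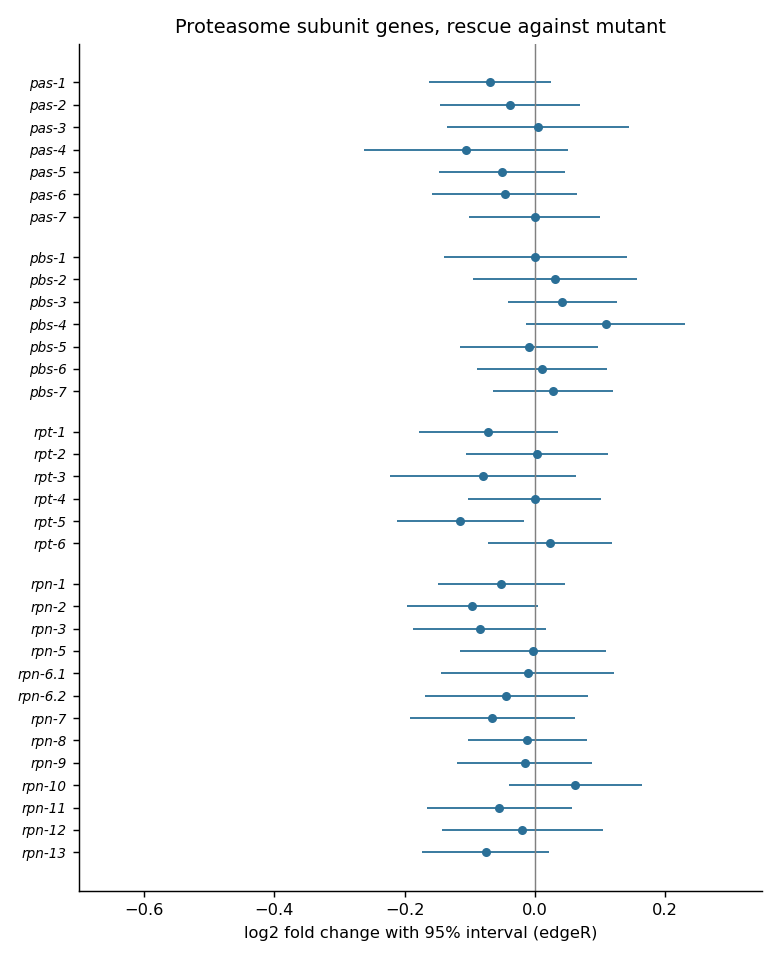
Log2 fold change of rescue against mutant (horizontal axis) with its 95% interval for each of the 33 subunit genes, on an axis that starts where the plot against WT starts. The points lie between -0.11 (*rpt-5*) and 0.11 (*pbs-4*), and every interval but that of *rpt-5* crosses 0.

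Among the alpha subunits all 7 genes were called lower in both comparisons. Their summed level was 76.4% of WT in the mutant and 74.4% in rescue. *pas-1* (WBGene00003922, chromosome V, 14421566 to 14422618, WBcel235) encodes an alpha ring subunit and was the most even gene of the set in WT, with a coefficient of variation of 0.958%. WT replicates 1 to 4 had 198, 195, 197 and 194 CPM. Mutant replicates had 141, 144, 143 and 141 CPM, and rescue replicates 143, 137, 128 and 134. WT lay far from the other samples, which overlapped each other. The log2 fold change was -0.46 (SE 0.04, adjusted p = 2.63e-05) in the mutant and -0.53 (SE 0.04, adjusted p = 6.54e-06) in rescue.

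*pas-2* (WBGene00003923, chromosome V, 10770368 to 10771351), the gene of another alpha subunit, had the lowest estimate of all 33 in the mutant. It was at 219, 204, 218 and 195 CPM in WT, at 149, 145, 151 and 153 CPM in the mutant and at 148, 140, 151 and 144 CPM in rescue. The lowest WT sample was thus above the highest of the others. Its log2 fold changes were -0.48 (SE 0.05, adjusted p = 5.26e-05) and -0.52 (SE 0.05, adjusted p = 1.88e-05). *pas-3* (WBGene00003924, chromosome I, 5105110 to 5106048) had the largest p of the alpha subunits. WT replicates had 255, 269, 264 and 261 CPM, mutant replicates 209, 222, 234 and 193 and rescue replicates 219, 211, 200 and 230. The groups did not overlap with WT.

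For *pas-3* the log2 fold changes were -0.29 (SE 0.06, adjusted p = 0.00566) in the mutant and -0.29 (SE 0.06, adjusted p = 0.00441) in rescue. These calls were not stable. Without WT replicate 3 the adjusted p was 0.0165 in the mutant and 0.0125 in rescue, and without WT replicate 4 it was 0.0141 and 0.0115. It was also over 0.01 in the mutant without mutant replicate 1, 2 or 4 (0.0132 to 0.0165) and in rescue without rescue replicate 1, 2 or 3 (0.0102 to 0.0140). With the replicate number as a block it was 0.0173 and 0.0140, with collection day as a block 0.0463 and 0.0402, and with library size alone as the scaling 0.0192 and 0.0508, where the log2 fold change in rescue became -0.19. The other *pas* genes, *pas-4* to *pas-7*, ran from 72.0% to 81.7% of WT in the mutant and from 66.9% to 80.4% in rescue. *pas-4* was the lowest of these in both, and its levels of 117 to 136 CPM in rescue compare with 174 to 195 CPM in WT.

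Of the beta subunits 5 of 7 genes were called lower in both comparisons, and their sum was 80.4% of WT in the mutant and 82.0% in rescue. *pbs-3* (WBGene00003949, chromosome II, 4954480 to 4955427) encodes a beta ring subunit without an active site. It was at 156, 157, 159 and 163 CPM in WT, at 124, 121, 124 and 123 CPM in the mutant and at 128, 127, 124 and 130 CPM in rescue. No sample crossed between WT and the others. The log2 fold changes were -0.37 (SE 0.04, adjusted p = 5.82e-05) and -0.32 (SE 0.04, adjusted p = 7.80e-05). *pbs-7* (WBGene00003953, chromosome I, 8695205 to 8696301), also without an active site, had 210, 210, 207 and 206 CPM in WT. The mutant had 151, 166, 161 and 162 CPM, and rescue 161, 163, 161 and 167 CPM. It overlaps K07A12.5 on the same strand, so the split of reads between these genes is uncertain. Its log2 fold changes were -0.38 (SE 0.04, adjusted p = 8.88e-05) and -0.35 (SE 0.04, adjusted p = 8.37e-05).

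The genes of the beta subunits with an active site had the smallest falls of the core particle by their estimates in both comparisons, and whether these falls differ from those of the other core genes was not tested. *pbs-5* (WBGene00003951, chromosome I, 14719167 to 14720477) encodes the subunit with chymotrypsin-like activity. It lay at 220, 200, 216 and 219 CPM in WT, at 173, 178, 178 and 180 CPM in the mutant and at 188, 174, 170 and 173 CPM in rescue. WT did not overlap with either group. It was called lower with log2 fold changes of -0.27 (SE 0.05, adjusted p = 0.00190) and -0.28 (SE 0.05, adjusted p = 0.00100), which became adjusted p = 0.0190 and 0.0125 with a block for collection day. With library size alone as the scaling the call in rescue was lost as well (log2 fold change -0.18, adjusted p = 0.0128).

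*pbs-2* (WBGene00003948, chromosome I, 12967216 to 12968280) encodes the subunit with trypsin-like activity and was not called by edgeR. WT replicates had 110, 126, 134 and 128 CPM. Mutant replicates had 107, 105, 112 and 106 CPM, and rescue replicates 108, 113, 110 and 108 CPM. WT replicate 1 lay among the mutant and rescue samples and the other WT samples above them. The log2 fold change was -0.21 (SE 0.06, adjusted p = 0.0174) in the mutant and -0.18 (SE 0.06, adjusted p = 0.0280) in rescue. Without WT replicate 1 both were called, with adjusted p = 0.00178 and 0.00211. DESeq2 called both on all samples, with adjusted p = 0.00373 and 0.00623.

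*pbs-1* (WBGene00003947, chromosome IV, 1708814 to 1709745), the gene of the subunit with caspase-like activity, had the smallest estimate of the 33 in both comparisons. It had 117, 117, 142 and 125 CPM in WT, 118, 113, 111 and 115 CPM in the mutant and 116, 115, 107 and 119 CPM in rescue. WT replicates 1 and 2 overlapped with both groups, and its coefficient of variation of 9.36% in WT was the highest of the set. The estimate was -0.13 in the mutant, with a 95% interval from -0.27 to 0.01 and adjusted p = 0.139. In rescue it was -0.13, with an interval from -0.27 to 0.01 and adjusted p = 0.122. Both intervals hold 0, and both also hold falls of up to 0.27.

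**Figure D4:**
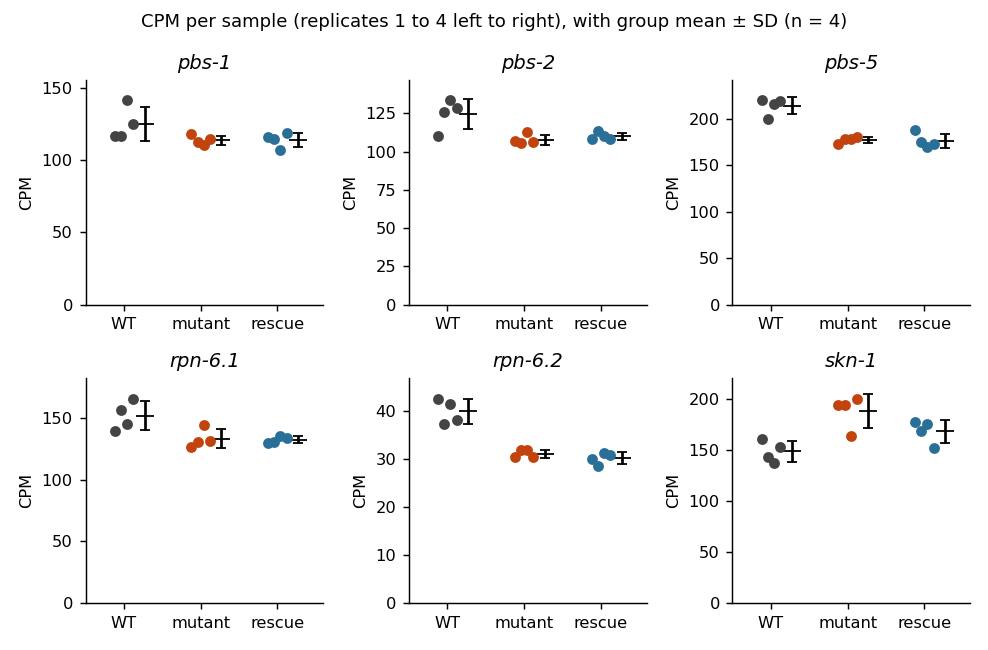
CPM (vertical axis, from 0) of *pbs-1*, *pbs-2*, *pbs-5*, *rpn-6.1*, *rpn-6.2* and *skn-1* in each sample of WT, mutant and rescue, replicates 1 to 4 from left to right, with mean ± SD (n = 4). For *pbs-1* and *pbs-2* some WT samples lie at the level of the other groups, whereas for *pbs-5* and *rpn-6.2* all WT samples lie above.

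All 6 *rpt* genes, which encode the ring of AAA ATPases at the base of the regulatory particle, were called lower in both comparisons. Their sum was 75.4% of WT in the mutant and 73.4% in rescue. *rpt-6* (WBGene00004506, chromosome III, 12370456 to 12372607) had 200, 188, 194 and 190 CPM in WT, 143, 145, 147 and 140 CPM in the mutant and 149, 144, 140 and 151 CPM in rescue. WT was above all other samples. The log2 fold changes were -0.42 (SE 0.04, adjusted p = 5.14e-05) and -0.40 (SE 0.04, adjusted p = 4.44e-05). *rpt-4* (WBGene00004504, chromosome II, 42207 to 46216) had 264, 281, 283 and 269 CPM in WT, 197, 201, 211 and 196 CPM in the mutant and 195, 205, 197 and 208 CPM in rescue. Here too the groups did not overlap with WT, with log2 fold changes of -0.45 (SE 0.05, adjusted p = 5.76e-05) and -0.45 (SE 0.05, adjusted p = 3.50e-05).

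*rpt-3* (WBGene00004503, chromosome III, 6489793 to 6491282) had the largest fall of the ATPases by its estimates in both comparisons, and in the mutant also the largest p among them. It lay at 234, 228, 234 and 225 CPM in WT and at 188, 157, 158 and 162 CPM in the mutant, where replicate 1 stood above the other replicates. In rescue it lay at 161, 161, 144 and 163 CPM, with replicate 3 below the others. The log2 fold changes were -0.47 (SE 0.07, adjusted p = 0.000402) and -0.55 (SE 0.07, adjusted p = 8.08e-05). *rpt-5*, the gene with an unadjusted p under 0.05 between rescue and mutant, had 192, 182, 174 and 180 CPM in the mutant and 174, 168, 165 and 165 CPM in rescue. These meet at 174 CPM, and the log2 difference was -0.11 (SE 0.04, adjusted p = 0.232).

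Of the 13 *rpn* genes 12 were called lower in both comparisons, and their sum was 79.7% of WT in the mutant and 77.3% in rescue. *rpn-8* (WBGene00004464, chromosome I, 4175319 to 4177271) encodes the partner of the deubiquitinating subunit. It had 216, 221, 212 and 218 CPM in WT, 163, 166, 173 and 161 CPM in the mutant and 159, 168, 167 and 164 CPM in rescue. WT stood clear of both groups, with log2 fold changes of -0.39 (SE 0.04, adjusted p = 7.21e-05) and -0.40 (SE 0.04, adjusted p = 3.57e-05). *rpn-1* (WBGene00004458, chromosome IV, 6906420 to 6909913), which encodes a large scaffold of the base, had 359, 345, 358 and 340 CPM in WT, 276, 265, 272 and 288 CPM in the mutant and 271, 262, 258 and 270 CPM in rescue. Its log2 fold changes were -0.35 (SE 0.05, adjusted p = 0.000240) and -0.40 (SE 0.05, adjusted p = 5.58e-05), again without overlap.

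By role, the deubiquitinase gene *rpn-11* was at 81.8% of WT in the mutant and 78.8% in rescue. The ubiquitin receptor gene *rpn-13* was at 82.9% and 78.7%, and the other receptor gene, *rpn-10*, at 84.1% and 87.9%. The call of *rpn-10* in rescue (log2 fold change -0.19, adjusted p = 0.00863) was lost without any 1 of the 4 WT replicates (adjusted p from 0.0123 to 0.0262), and its call in the mutant (adjusted p = 0.00248) was lost without mutant replicate 2 (0.0112). In rescue it was also lost without mutant replicate 2 or 3 and without rescue replicate 1, 2 or 3 (0.0120 to 0.0249). With library size alone as the scaling neither call of *rpn-10* held (adjusted p = 0.0215 in the mutant and 0.256 in rescue), and the estimate in rescue became -0.090. *rpn-2*, the other base scaffold, was at 82.9% and 77.6%. The lid scaffold genes *rpn-3*, *rpn-5*, *rpn-7*, *rpn-9* and *rpn-12* ran from 74.0% to 83.0% of WT in the mutant and from 70.7% to 82.1% in rescue, with *rpn-7* the lowest and *rpn-9* the highest in both. With library size alone as the scaling *rpn-9* was not called (adjusted p = 0.0151 in the mutant and 0.0306 in rescue, where the log2 fold change went from -0.28 to -0.19), nor was *rpn-13* in the mutant (0.0114). With collection day as a block *rpn-2*, *rpn-9*, *rpn-10* and *rpn-13* were not called in the mutant, nor *rpn-9* and *rpn-10* in rescue (adjusted p from 0.0122 to 0.0350).

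The lid subunit Rpn6 is encoded by a pair of genes, *rpn-6.1* and *rpn-6.2*, and how reads were shared between these related genes is uncertain. *rpn-6.1* (WBGene00004462, chromosome III, 6959110 to 6962001) was the regulatory gene that was not called by edgeR. It had 139, 156, 145 and 166 CPM in WT, 127, 131, 144 and 132 CPM in the mutant and 130, 130, 136 and 133 CPM in rescue. Mutant replicate 3 reached above the lowest WT sample, while all rescue samples were below WT. The log2 fold changes were -0.19 (SE 0.06, adjusted p = 0.0374) and -0.20 (SE 0.06, adjusted p = 0.0232), and without WT replicate 1 the adjusted p in rescue was 0.00801. DESeq2 called *rpn-6.1* in rescue (adjusted p = 0.00302) but not in the mutant. *rpn-6.2* (WBGene00010309, chromosome III, 8999817 to 9001999) had 42.6, 37.4, 41.5 and 38.2 CPM in WT, 30.4, 31.9, 31.8 and 30.4 CPM in the mutant and 30.0, 28.5, 31.3 and 30.9 CPM in rescue. WT was above all other samples, with log2 fold changes of -0.36 (SE 0.06, adjusted p = 0.000965) and -0.40 (SE 0.06, adjusted p = 0.000266). The call of *rpn-6.2* in the mutant was lost with collection day as a block (adjusted p = 0.0139) and on the shared days alone (0.0118).

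Per kilobase of coding length, *rpn-6.2* gave 24.4%, 20.1%, 23.1% and 19.5% of the summed level of the pair in WT replicates 1 to 4. In the mutant its share was 20.1%, 20.4%, 18.9% and 19.6%, and in rescue 19.6%, 18.7%, 19.6% and 19.6%. WT replicates 2 and 4 had shares like those of the other groups, and replicates 1 and 3 lay above them. Together the pair had 147 ± 7.19 CPM per kilobase in WT, against 126 ± 6.07 for mutant and 125 ± 2.95 for rescue samples (SD, n = 4 each).

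Levels of different subunit genes were compared only per kilobase of coding length. In WT the core genes ran from 350 ± 8.07 CPM per kilobase (*pas-3*) to 150 ± 11.98 (*pbs-2*), with *pbs-1* next to last at 172 ± 16.2 (SD, n = 4). *pas-3* stood above the next gene, *pas-2* at 301 ± 16.6, by more than the sum of their SDs. *pas-2*, *pas-6* and *pbs-7* followed within their spread, and the 8 genes from *pbs-4* to *pbs-6* formed a further run between 280 and 244 in which no neighbours were separated by their spread. *pbs-1* and *pbs-2*, not separated from each other, lay below this run by more than the sum of the SDs. They were thus both the core genes with the lowest level per kilobase and those with the smallest falls. In the mutant and in rescue *pas-3* stayed the highest and *pbs-2* the lowest core gene.

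The regulatory genes ran from 245 ± 4.76 CPM per kilobase (*rpn-7*) to 115 ± 8.95 (*rpn-6.1*) and 32.0 ± 2.03 (*rpn-6.2*). Their range overlapped that of the core genes, with *rpn-7* near *pbs-6* at 244 and above *pbs-1* at 172. *rpt-4* was next to *rpn-7* at 225 ± 7.91, and each of these was separated from its next neighbour by more than the sum of the SDs. From *rpn-3* at 214 ± 2.95 to *rpn-11* at 195 ± 3.60 neighbours could not be separated, and the same held from *rpt-3* at 186 ± 3.77 down to *rpt-6* at 155 ± 4.04. With exon length in place of coding length *rpn-7* moved from rank 1 to rank 7, since its annotated exons total 1907 bases against 1230 coding bases.

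**Figure D5:**
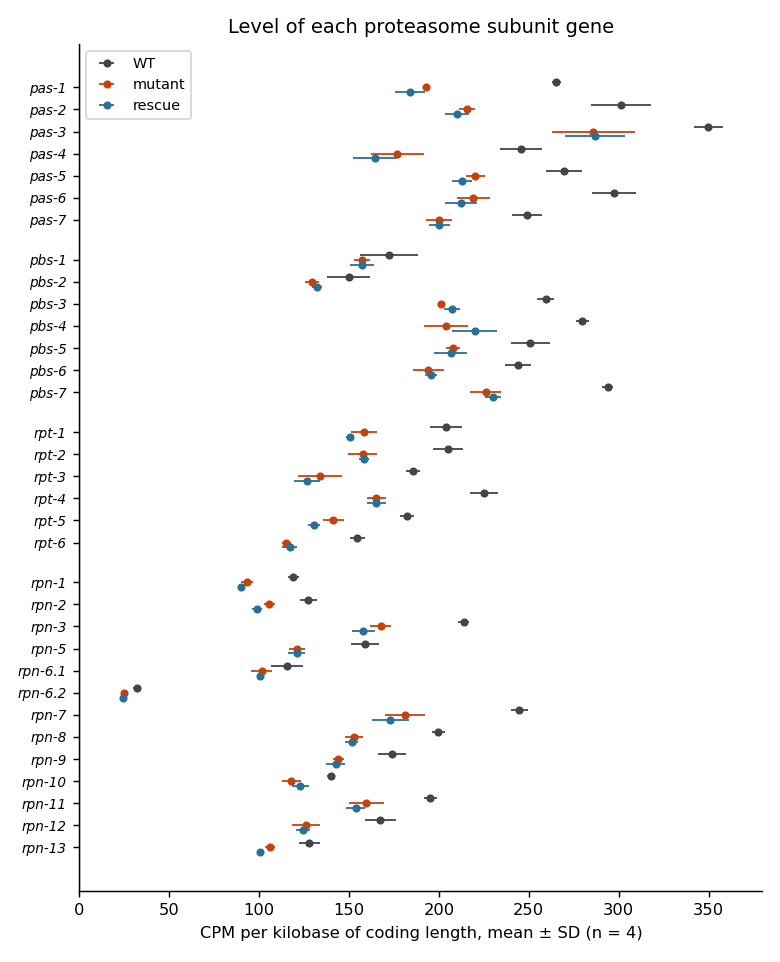
Level of each of the 33 subunit genes as CPM per kilobase of coding length (horizontal axis, mean ± SD, n = 4) in WT, mutant and rescue. WT points lie to the right of the mutant and rescue points for every gene, and *rpn-6.2* stands alone at the low end.

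Genes that work beside the proteasome were taken from 4 lists, and no difference between these lists and the subunit genes was tested. Over all genes edgeR called 9.01% lower and 6.36% higher in the mutant, and 13.5% and 10.2% in rescue. Of ubiquitin and its activating enzyme (*ubq-1*, *ubq-2*, *uba-1*), 0 of 3 were called by edgeR in either comparison, while 2 of 3 had an unadjusted p under 0.05 in each, as did 40.7% of all genes in the mutant and 47.7% in rescue. DESeq2 called 0 of 3 in the mutant and 1 in rescue, against 21.3% and 28.9% of all genes. The polyubiquitin gene *ubq-1* had log2 estimates of 0.10 and 0.021. The ribosomal fusion gene *ubq-2* had 1623, 1442, 1442 and 1581 CPM in WT, 1259, 1374, 1356 and 1202 in the mutant and 1399, 1405, 1226 and 1288 in rescue. These levels did not overlap with WT, but the log2 fold changes of -0.23 (SE 0.07, adjusted p = 0.0316) and -0.20 (SE 0.07, adjusted p = 0.0490) did not pass.

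Of 7 shuttle and proteasome-associated factors, 3 were called lower in the mutant and 4 in rescue, against 9.01% and 13.5% of all genes. Of these 7, 0 were called higher, against 6.36% and 10.2% of all genes. The median log2 fold change was -0.22 and -0.19. The deubiquitinases *usp-14* and *ubh-4* and the small lid subunit gene *dss-1* were called in both comparisons, and the shuttle gene *rad-23* in rescue. *usp-14*, which trims ubiquitin on substrates bound to the proteasome, had 158, 161, 157 and 163 CPM in WT, 119, 123, 126 and 126 CPM in the mutant and 120, 129, 128 and 128 CPM in rescue. WT was clear of both groups, with log2 fold changes of -0.37 (SE 0.04, adjusted p = 0.000112) and -0.34 (SE 0.04, adjusted p = 0.000109). The corresponding log2 fold changes were -0.48 and -0.47 for *ubh-4* and -0.34 and -0.48 for *dss-1*, and the call of *dss-1* in the mutant (adjusted p = 0.00303) was lost without mutant replicate 2 (0.0126) or 3 (0.0102) and with collection day as a block (0.0193).

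CDC-48 is the unfoldase that extracts ubiquitylated proteins from complexes and membranes. Of the 6 genes of CDC-48 and its cofactors, 2 were called lower in the mutant and 5 in rescue. Over all genes 9.01% and 13.5% were called lower. The medians of the list were -0.18 and -0.22. *cdc-48.2* had 508, 459, 494 and 478 CPM in WT, 372, 367, 369 and 378 CPM in the mutant and 365, 366, 357 and 386 CPM in rescue. No sample of either group reached WT. Its log2 fold changes of -0.38 (SE 0.05, adjusted p = 0.000193) and -0.40 (SE 0.05, adjusted p = 8.79e-05) were close in size to those of the subunit genes. Its paralog *cdc-48.1* was at -0.16 (adjusted p = 0.0342) and -0.23 (adjusted p = 0.00412).

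Of the SKN-1A route, 1 of 5 genes was called higher and 0 lower in the mutant, and 0 higher and 1 lower in rescue. Over all genes 6.36% were called higher and 9.01% lower in the mutant, and 10.2% and 13.5% in rescue. *skn-1*, whose transcripts encode SKN-1A and other isoforms, had 161, 143, 137 and 153 CPM in WT, 194, 194, 163 and 200 CPM in the mutant and 177, 168, 175 and 152 CPM in rescue. All mutant samples were above WT, and 3 of 4 rescue samples were. The log2 fold change was 0.34 (SE 0.08, adjusted p = 0.00695) in the mutant and 0.18 (SE 0.08, adjusted p = 0.0868) in rescue. The call in the mutant was lost without WT replicate 2, 3 or 4, without mutant replicate 1, 2 or 4 and without rescue replicate 2 or 3 (adjusted p from 0.0108 to 0.0259). It was also lost with the replicate number (0.0116) or collection day (0.0383) as a block and in a fit of the 2 groups alone (0.0208). Gene-level counts do not separate the isoforms.

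*ddi-1*, the protease that processes SKN-1A, had 49.1, 62.0, 49.9 and 55.3 CPM in WT, 44.0, 47.0, 46.2 and 44.3 CPM in the mutant and 42.8, 46.4, 44.2 and 45.6 CPM in rescue. WT was above both groups, by a log2 fold change of -0.25 (SE 0.07, adjusted p = 0.0196) in the mutant and -0.27 (SE 0.07, adjusted p = 0.00987) in rescue. Without WT replicate 1 it was called in both (adjusted p = 0.00875 and 0.00397). In rescue it was lost without WT replicate 2 (0.0177) or 4 (0.0267) and without any 1 of the mutant or rescue replicates (0.0140 to 0.0308), with collection day as a block (0.0669) and with library size alone (0.121, log2 fold change -0.18). *png-1*, the glycanase of the route, had 38.5, 35.9, 39.1 and 34.2 CPM in WT, 30.6, 33.0, 35.2 and 32.1 CPM in the mutant and 35.3, 37.8, 34.8 and 36.1 CPM in rescue. The groups overlapped, and the log2 fold changes of -0.17 (SE 0.06, adjusted p = 0.0528) and -0.04 (SE 0.06, adjusted p = 0.671) did not pass. Scaled by library size alone, the estimate in rescue was above 0. In all 4 lists 0 genes were called between rescue and mutant by edgeR or DESeq2. Over all genes edgeR called 0.0763% lower and 0.305% higher, and DESeq2 2.03% in either direction. At an unadjusted p under 0.05 in edgeR, 1 gene of the CDC-48 list and 1 of the SKN-1A list passed. Over all genes 17.1% did.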

How the data were processed

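RNA came from 12 samples of whole mid-L4 worms in 3 groups of 4. By their methods, the authors estimated transcript abundance with Salmon against Ensembl 94 (WBcel235) and collapsed it to genes, and they deposited expected counts per gene. The authors also deposited a normalized signal, which is these counts divided by DESeq2 size factors. Salmon's version and whether it used read strand are not given in the sources used here, although the kit was stranded. Of the subunit genes, 9 overlap a gene on the other strand, so reads of such pairs may be shared.

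Expected counts were rounded and filtered with filterByExpr (15728 genes left), scaled by TMM and fitted over all 12 samples in edgeR 4.0.16 (R 4.3.3) with 1 mean per group. The 3 pairwise comparisons and a test for any difference were done by the quasi-likelihood test, two-sided, with Benjamini-Hochberg adjustment and a threshold of 0.01. Standard errors are the log2 fold change over the root of F. DESeq2 1.42.0 was an alternative. The fits were also run on simulated counts with known changes and no differences between collection days, and that outcome is not used here. Coordinates and lengths come from Ensembl 115 (WBcel235), where 21714 of 21882 genes were found, and coding length was taken from it in place of protein tables. Sequences were not used here, and a planned search of promoters for the SKN-1 motif was not run.

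The subunit rule, pathway lists and tests were chosen with earlier results of these data known. Values are given in every sample for the 2 genes with the smallest and the 1 with the largest p (mutant against WT) in each of *pas*, *pbs*, *rpt* and *rpn*, for *pbs-1*, *pbs-2*, *pbs-5*, *rpn-6.1*, *rpn-6.2*, *skn-1*, *ddi-1* and *png-1*, and for the smallest p of each pathway list. *rpt-5* was added after its values were seen. Mutant and rescue samples with the same number share a collection day by the labels, and the correlations of their deviations over all genes were -0.02, 0.15, -0.14 and 0.01. WT numbers share no day with them. Egg lays were independent, and replicates of a group differed by far more than counting noise (chi-square per degree of freedom at least 14.6). This value does not hold for each subunit gene, since the coefficient of variation of *pas-1* in WT was only 0.958%.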

Additional observations from a re-analysis of the deposited data

Results flagged for a closer look

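In 5 of 108 groups of 4 samples examined (36 measures in 3 groups), 1 sample stood far from the other 3, and chance flags about 1 in 20 groups. The level of *rpt-3* was 188 CPM in mutant replicate 1 against 157 to 162 in the other mutant samples. In rescue replicate 3 it was 144 CPM against 161 to 163, and *pbs-4* was 122 CPM there against 136 to 139. The summed level of the regulatory genes was 3144 CPM in rescue replicate 3 against 3267 to 3289 in the other rescue samples. The ratio of core to regulatory CPM was 0.647 in rescue replicate 1 against 0.634 to 0.636.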

How the results depend on the processing

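Across 25 alternatives, the 66 fold changes of single subunit genes against WT all kept their sign, and 47 kept their side of the threshold throughout. The alternatives chosen after seeing the data left out WT replicates 1 and 3, WT replicates 2 and 4, or the samples of days that not all groups share. With library size alone, the median log2 fold change moved to -0.31 (core) and -0.33 (regulatory) in the mutant, to -0.24 and -0.30 in rescue, and to 0.064 and 0.022 for rescue against mutant, while the median of all genes moved to 0.035, 0.14 and 0.062. Summed CPM then stood at 80.0% of WT in the mutant for both particles and at 83.2% and 81.2% in rescue. Without WT replicates 1 and 3 the core median in the mutant was -0.37. *png-1* in rescue became positive with library size alone (0.061) and without WT replicates 1 and 3 (0.030). The cause was not tested. Leaving out 1 sample gave 11 to 13 core and 17 or 18 regulatory calls in each comparison with WT. Over the whole table these fits called 846 to 1499 genes lower in the mutant and 1539 to 2167 in rescue.

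With the replicate number as a block, calls of lower subunit genes were 29 in the mutant and 28 in rescue in place of 30 each, and 0 between rescue and mutant. Over the whole table that fit called 1144 genes lower in the mutant and 1864 in rescue. Between rescue and mutant it called 7 genes lower and 27 higher. WT numbers carry no pairing. Calls of lower genes over the whole table went from 1417 to 568 in the mutant and from 2119 to 1094 in rescue when collection day was blocked, where the subunit genes gave 23 and 25. On the shared days alone they gave 22 and 27, with fewer samples in the fit. The fewest counts of any subunit gene were those of *rpn-6.2*.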

Other observations

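The 33 subunit genes lie on 5 chromosomes, with 10 on I, 7 on II, 8 on III, 3 on IV and 5 on V in WBcel235. The closest pair, *pas-4* and *pbs-7*,, is 30916 bases apart, and *rpn-2* and *rpn-13*, the next closest, are 137518 bases apart. These neighbours had log2 fold changes in the mutant of -0.47 and -0.38 for the former pair and -0.27 and -0.27 for the latter.

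The spread between replicates was small for nearly all subunit genes. The median coefficient of variation over the 33 genes was 3.51% in WT, 3.61% in the mutant and 3.24% in rescue, although WT libraries lay farther apart over all genes. The genes with the highest value were *pbs-1* in WT (9.36%), *rpt-3* in the mutant (8.96%) and *pas-4* in rescue (7.48%).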
